A study of Mus musculus with 6 samples.

Results

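Sodium butyrate (NaBu) was compared with no treatment in mouse embryonic stem cells, over every gene the array could name. The comparison used 4 of the 6 arrays of the series, 2 labelled NaBu and 2 labelled Control. All cultures were E14 cells, an established mouse embryonic stem cell line, kept in serum medium with the cytokine LIF on fibroblasts taken from embryos and stopped from dividing with mitomycin C. The NaBu cultures received 0.2 mM NaBu for 16 h, the controls received no inhibitor and have the same time label, and the remaining 2 arrays carry RNA of cells given 0.5 mM valproic acid (VPA) for 16 h. Total RNA was hybridised to one-colour Affymetrix arrays, and levels are given as log2 expression, so that a difference of 1 is a doubling of the signal. The labels number the replicates 1 and 2 without saying that they were separate cultures, so p-values measure the spread between these samples, which may be technical. Fibroblasts were present in every culture, and in such bulk RNA a change in the number of a cell type and a change in RNA per cell cannot be told apart.

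Butyrate is a short-chain fatty acid that gut bacteria make from fibre and that colon cells burn as fuel. It also blocks zinc-dependent histone deacetylases of classes I and IIa, the enzymes that take acetyl groups off histone tails, so acetylated histones build up and many genes switch on or off. Cells take it up through monocarboxylate carriers and sense it at the surface through fatty acid receptors, and mitochondria oxidise it. In embryonic stem cells deacetylase complexes restrain genes of differentiation and of the germ line while the factors Pou5f1, Sox2 and Nanog keep the undifferentiated state.

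The cells carried the markers of their label. Pou5f1 stood at 11.90 and 11.63 on the control arrays and at 11.68 and 11.56 on the NaBu arrays. Nanog stood at 11.62 and 11.11 in controls and at 11.70 and 11.03 with NaBu. Both lay far above the median gene, which was between 5.71 and 5.79 on these 4 arrays, and the groups overlapped for both genes. Fibroblast collagen was measured too, with Col1a1 at 8.18 and 8.98 in controls and at 8.33 and 9.66 with NaBu.

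No gene passed the test between NaBu and control. limma called 0 of 19938 genes at an adjusted p under 0.05 (0% of those tested), and the smallest adjusted p was 1. With the replicate number added as a block limma also called 0, with a smallest adjusted p of 0.994. At an unadjusted p under 0.05 limma counted 311 genes (1.56%), 132 higher (0.662%) and 179 lower (0.898%), where uniform p-values would give 997. With the block the count was 916 (4.59%), 478 higher (2.4%) and 438 lower (2.2%), and all 311 genes were among them. No gene below is therefore described as having risen or fallen, and the values stand as measured differences. Intervals of single genes below are from the fit without the block unless the block is named.

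The differences were small for nearly all genes. The median size was 0.09 on the log2 scale, the 99th percentile of the size was 0.42, and the median signed difference was 0.01. A pooled difference of at least 0.5 was measured for 40 genes above and 36 below zero. A doubling was reached by no gene and a halving by 1, a 5S ribosomal RNA gene.

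The design set the size that could be shown. The 95% interval of a gene reached 0.36 to either side of its estimate in the median (quartiles 0.31 and 0.46), or 0.27 with the replicate block. A true difference of 0.50 (1.41-fold) would reach an unadjusted p under 0.05 with 80% power in the median gene, or 0.38 (1.30-fold) with the block. To pass the adjustment over all genes as the only called gene, an estimate of 2.38 (5.21-fold) would be needed, or 1.39 (2.62-fold) with the block. If 100 genes were called together, 1.10 (2.15-fold) would do, or 0.74 (1.67-fold) with the block. The largest estimates measured, 0.99 and -1.23, lay within the size needed for a single called gene of median error.

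The intervals bound what may have been missed. For 19167 genes (96.1%) the 95% interval lay within a doubling and a halving, and with the block for 19890 (99.8%). For 11427 genes (57.3%) it lay within 0.5 either way, and with the block for 16680 (83.7%). With the genes cut into 4 groups by level, 67.4%, 50.9%, 47.9% and 63.0% had an interval within 0.5 from the dimmest group to the brightest. The dimmest group spanned levels of 2.22 to 3.92, and RMA compresses differences of dim genes. Narrow intervals there bound the signal and may not bound changes in RNA. The counts over all genes include that group. These bounds hold gene by gene. A measured difference smaller than the half-width of a gene's interval could not reach an unadjusted p under 0.05 in limma. Passing the adjustment needed the larger sizes given above.

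**Figure D1:**
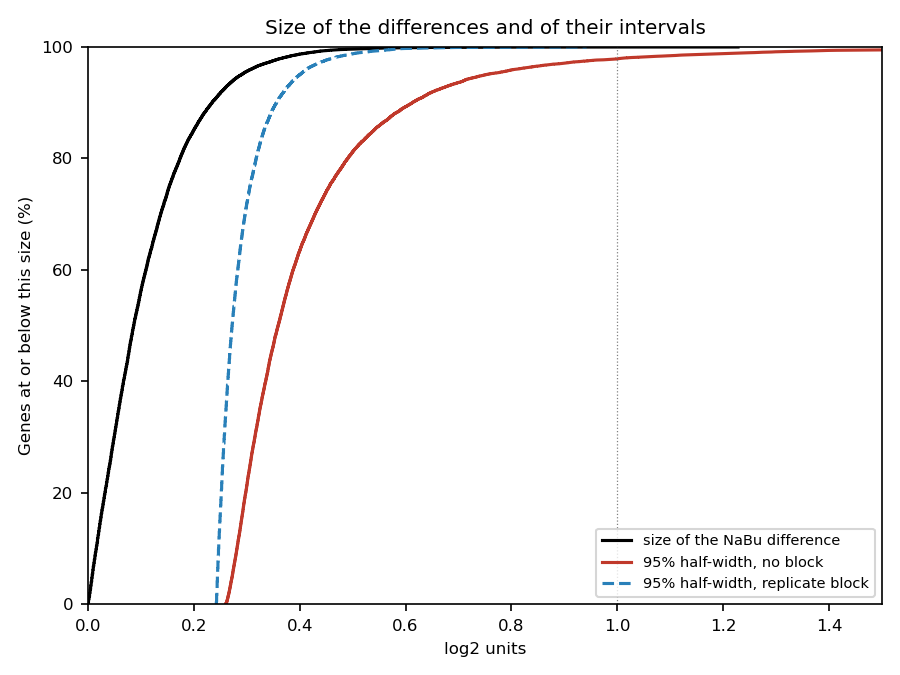
Share of the 19938 genes (vertical axis, %) at or below a given size on the log2 scale (horizontal axis), for the measured NaBu minus Control difference and for the half-width of its 95% interval in limma, without and with the replicate number as a block. The median difference, 0.09, is smaller than the median half-width of either model, 0.36 and 0.27; the axis ends at 1.5.

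Differences were also taken inside each replicate number, as NaBu 1 minus Control 1 (set 1) and NaBu 2 minus Control 2 (set 2). Their SD over genes was 0.18 in set 1 and 0.21 in set 2. The arrays of one condition differed more: the SD of Control 2 minus Control 1 was 0.31 and that of NaBu 2 minus NaBu 1 was 0.35. Across genes, which are not independent replicates, the differences of sets 1 and 2 correlated with r = 0.09 (Spearman rho 0.08). The same description for VPA, at its own dose and with the same controls, gave r = 0.35 (rho 0.31).

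Genes with one sign in both sets numbered 10405 (52.2%), of which 5803 were higher (29.1%) and 4602 lower (23.1%). A difference of at least 0.25 one way in both sets was found for 526 genes (2.64%), against 327 that reached that size in opposite directions. At 0.5 the numbers were 22 genes (0.11%) against 10, and at 1 they were 0 and 0. Of the genes at 0.5 or more in set 1, 8.18% were among the 22, and of those in set 2, 4.4%.

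**Figure D2:**
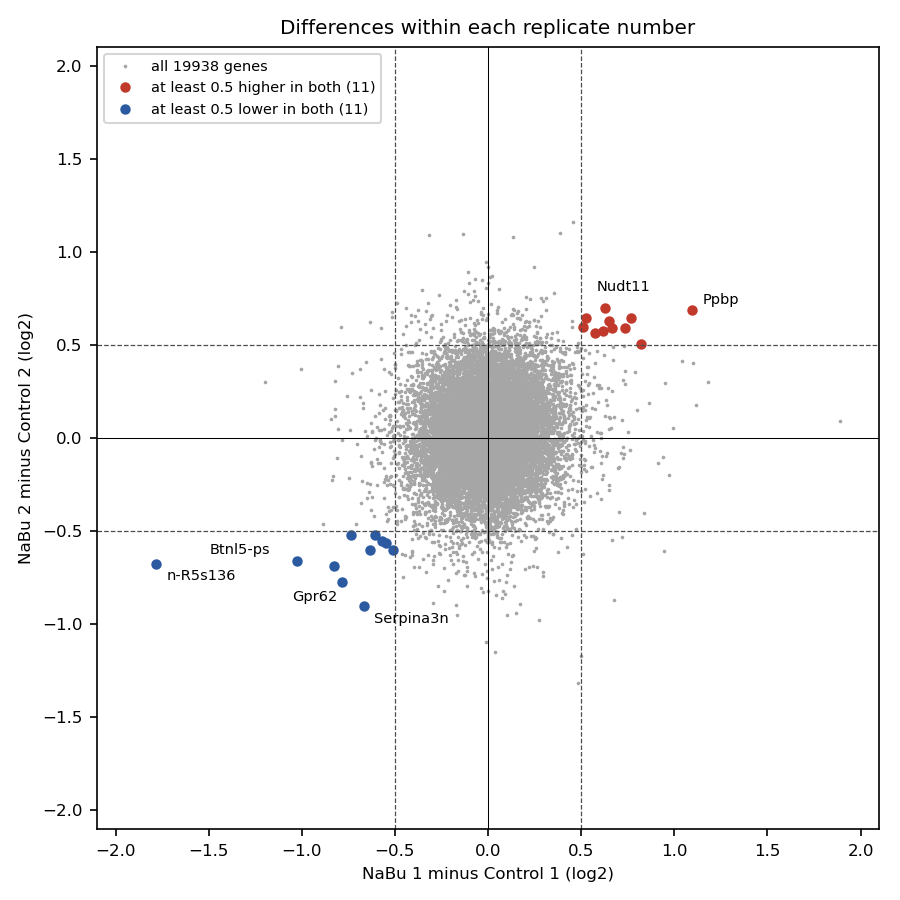
NaBu 1 minus Control 1 (horizontal axis, log2) against NaBu 2 minus Control 2 (vertical axis, log2) for each of 19938 genes, with dashed lines at 0.5 either way. The cloud shows little slope (r = 0.09), and 11 genes lie at least 0.5 higher and 11 at least 0.5 lower in both sets; Gpr62 lies at -0.79 and -0.77, Ppbp at 1.10 and 0.69, and n-R5s136 at -1.78 in set 1.

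The 22 genes held 11 higher and 11 lower. In 16 of them both NaBu arrays lay on one side of both control arrays, which was so for 4758 genes over the array (23.9%). Of the 22, 11 had a mean level below the median gene, and 4 carry clone or unnamed-type symbols. Those 4 are Gm11517, Gm5886 and 1700019N19Rik, all lower, and n-R5s136. H2-Ab1, a class II histocompatibility chain and one of the 11 higher, differed by 0.82 in set 1 and 0.51 in set 2. The threshold of 0.5 chose them, so their sizes are a description. Just outside it were Gm7982, Slc41a2, Tktl1 and Npy1r, whose smaller set differences were 0.50, 0.49, 0.49 and 0.48.

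Several short structural RNAs, among them products of RNA polymerase III, stood lower with NaBu. This group was formed after its values were seen and is described without a test of the group. Whether short RNAs were recovered equally from all samples is not given in the sources used here, and its part in these values was not tested. Rny3, a Y RNA bound by the Ro protein, stood at 11.55 and 11.29 in controls and at 10.72 and 10.60 with NaBu. It lay lower by -0.83 in set 1 and -0.69 in set 2, with a pooled difference of -0.76 (95% interval -1.09 to -0.43) and the smallest p of the unblocked model (0.00118, limma, adjusted p = 1). The groups did not overlap, and the NaBu mean was 0.591 of the control mean. All 3 genes annotated as RNase P RNA, the catalytic RNA that trims transfer RNA precursors, were lower in both sets. Rprl1 stood at 7.14 and 7.18 in controls and at 6.68 and 6.44 with NaBu, a difference of -0.60 (95% interval -0.95 to -0.25). Rprl2 stood at 7.64 and 7.61 against 7.15 on both NaBu arrays, a difference of -0.47 (-0.74 to -0.21). The main RNase P gene, Rpph1, differed by -0.62 in set 1 and -0.15 in set 2.

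Other short RNAs gave a mixed picture. Rmrp, the RNA of the related RNase MRP, stood at 11.49 and 11.47 in controls and at 10.81 and 11.37 with NaBu, so that its difference lay mainly in set 1. The 5S ribosomal RNA gene n-R5s136 stood at 11.26 and 10.40 in controls and at 9.48 and 9.73 with NaBu, differing by -1.78 in set 1 and -0.67 in set 2. Rn7sk, another abundant RNA polymerase III product, differed by -0.08 and Rny1, near the bottom of the scale, by -0.04. Of 7 genes annotated as small nuclear RNA, 3 were higher and 4 lower. Among them, all from low levels, Rnu5g differed by -0.37 and -0.46 and Rnu7 by -0.24 and -0.46. Rnu6 stood 0.09 and 0.19 higher. Of 53 small nucleolar RNAs, 34 were higher and 19 lower, with a median difference of 0.08, and the 297 microRNA genes had a median of 0.01. Rprl1, Rprl2 and Rpph1 are near copies, so their probes may share signal and the 3 genes may not be independent. The same genes on the VPA arrays, set against the same controls, differed by -0.45 (Rny3), -0.37 (Rprl1), -0.30 (Rprl2), -0.20 (Rpph1) and -1.05 (n-R5s136).

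Among protein-coding genes, Gpr62 and Prp2 stood lower in both sets. Gpr62, an orphan G protein-coupled receptor, stood at 5.68 and 5.40 in controls and at 4.89 and 4.63 with NaBu. Its set differences were -0.79 and -0.77, the pooled difference was -0.78 (95% interval -1.16 to -0.39), and it had the smallest p of the blocked model (8.59e-05, limma, adjusted p = 0.994). Prp2, a proline-rich protein of saliva, stood at 6.84 and 6.75 against 6.20 and 6.15, a difference of -0.62 (-0.89 to -0.35). For both genes the NaBu arrays lay below the control arrays with a gap wider than the spread within either group.

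Other genes on the lower side ran from dim to moderate levels. Serpina3n, a secreted protease inhibitor, differed by -0.67 and -0.90 in the 2 sets. Ampd1, the AMP deaminase of muscle, differed by -0.71 and -0.46 and Mug1, a plasma protease inhibitor, by -0.45 and -0.63, from control means of 4.04 and 3.53. Shisa9, an accessory protein of glutamate receptors, differed by -0.51 and -0.60 from a control mean of 6.38. Mtarc1, a mitochondrial reductase, differed by -0.55 and -0.56, and the pseudogene Btnl5-ps by -1.03 and -0.66. The rule that named these genes used their test statistics or the smaller of their set differences.

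On the higher side, Ppbp, which encodes a platelet chemokine precursor, stood at 4.999 and 4.89 in controls and at 6.10 and 5.58 with NaBu. Its difference was 1.10 in set 1 and 0.69 in set 2, pooled 0.89 (95% interval 0.38 to 1.40), a 1.86-fold higher signal. Lyrm9 stood at 4.24 and 4.02 against 4.77 and 4.66, a difference of 0.59 (0.26 to 0.91). Plekhd1 stood at 3.89 and 3.75 against 4.40 and 4.34, a difference of 0.55 (0.28 to 0.83), the largest statistic on the higher side. In all 3 genes both NaBu arrays lay above both controls. Vdr, the vitamin D receptor, stood at 4.70 and 4.72 in controls and at 5.07 and 5.21 with NaBu, a difference of 0.43 (0.14 to 0.71). On the VPA arrays Vdr stood at 5.38 and 5.29.

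Kcnj14, a potassium channel, stood 0.39 higher in set 1 and 1.10 higher in set 2, where Control 2 was the lowest array. Ppp1r27, a regulator of protein phosphatase 1, stood higher by 0.48 and 0.49 and Elapor2 by 0.41 and 0.45, all from levels under the median gene. Nudt11, a phosphatase of inositol pyrophosphates, stood at 5.87 and 5.62 in controls and at 6.50 and 6.32 with NaBu, a difference of 0.66 (95% interval 0.04 to 1.29). Tgfbrap1, a protein of endosome tethering, stood higher by 0.62 and 0.58. Nudt11 has a near-identical neighbour, Nudt10, so its probes may report both.

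Some genes on the higher side had replicates at different levels and similar differences within both sets. Usp17lb, of a family of deubiquitinating enzymes and a member of the 2-cell-like list, stood at 6.64 and 5.58 in controls and at 7.31 and 6.17 with NaBu, 0.66 higher in set 1 and 0.59 in set 2. Mageb4, an X-linked gene of testis, stood at 6.88 and 5.67 against 7.46 and 6.23, with set differences of 0.58 and 0.56. Pramel19 stood 0.77 and 0.65 higher and Tex13b 0.65 and 0.63. For Usp17lb and Mageb4 the groups overlapped, and the unblocked interval ran from -0.81 to 2.06 and from -1.05 to 2.19. With the block the intervals were 0.35 to 0.90 and 0.27 to 0.86. Both genes were named for large differences one way in both sets, and the blocked error is small for such genes. All 22 genes at 0.5 in both sets had a p under 0.05 in limma with the block. These blocked intervals are therefore a description. The Usp17l, Pramel and Mageb genes belong to families of close copies, and their probes may report more than 1 member.

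**Figure D3:**
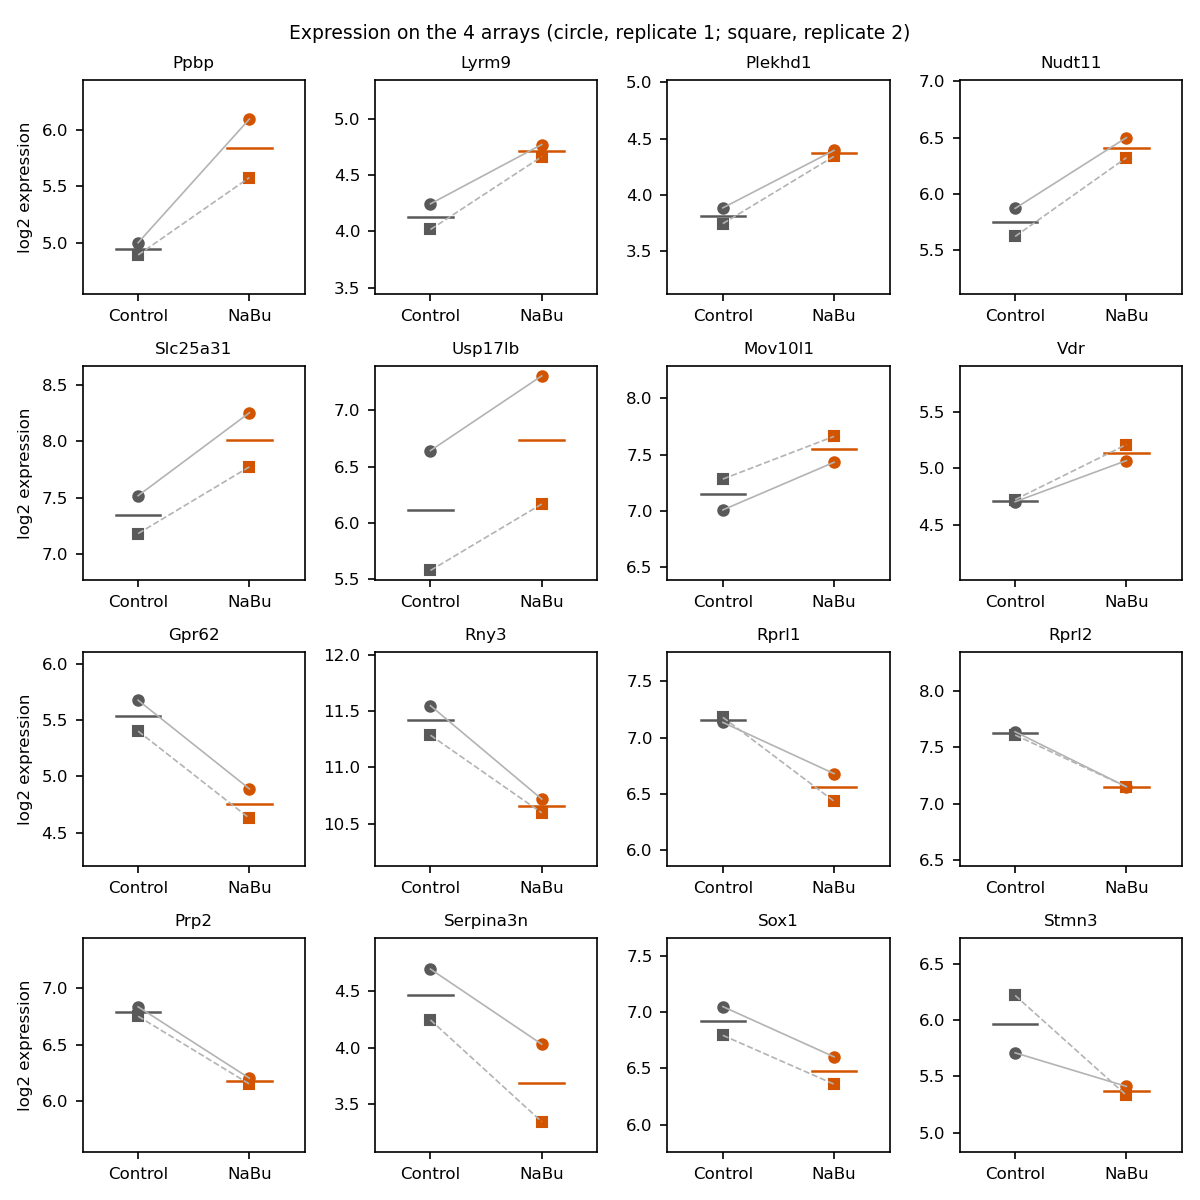
Log2 expression of 16 genes on the Control and NaBu arrays (horizontal axis, group; vertical axis, log2 expression, with the same span for every gene). Circles joined by solid lines are replicate 1, squares joined by dashed lines replicate 2, and bars are group means; Rprl2 and Prp2 show the closest replicates, and Usp17lb shows replicates far apart in controls, at 6.64 and 5.58, whose NaBu differences are 0.66 and 0.59.

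The germ cell and piRNA list had the largest share of members on one side among the 32 lists. Its genes act in meiosis, in germ cell identity and in the piRNA pathway, which silences transposons in the male germ line. Of 50 measured genes, 40 were higher and 10 lower with NaBu, against 54.3% higher and 45.7% lower over all genes, and 29 were higher in both sets against 6 lower in both. The median difference was 0.16, with 0.19 in set 1 and 0.12 in set 2, where the medians over all genes were 0.00 and 0.03. No member passed the test. At an unadjusted p under 0.05 limma without the block counted 1 higher and 1 lower, against 0.662% and 0.898% of all genes. With the block it counted 6 higher and 1 lower, against 2.4% and 2.2% of all genes. An earlier description of these data had shown this list on the higher side, so its position is not independent evidence. The median stayed above zero without each array in turn, between 0.12 and 0.15.

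Slc25a31, the ADP/ATP carrier of sperm, stood at 7.52 and 7.18 in controls and at 8.25 and 7.77 with NaBu, 0.74 higher in set 1 and 0.59 in set 2. Both NaBu arrays lay above both controls, and the pooled difference was 0.66 (95% interval -0.34 to 1.67, and 0.18 to 1.15 with the block). Mov10l1, the helicase that feeds precursors into the piRNA pathway, stood at 7.01 and 7.28 against 7.43 and 7.66. Its difference was 0.40 (-0.04 to 0.84, and 0.018 to 0.785 with the block). Mael, a factor of piRNA silencing, stood at 8.64 and 8.56 against 9.05 and 8.94, with set differences of 0.41 and 0.38. In Mov10l1 and Mael the sets gave nearly the same difference and the groups did not overlap. Over the array 23.9% of genes had groups without overlap. The naming rule picked list members by one sign in both sets and the largest smaller difference, so the agreement is a description.

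Members outside the naming rule, chosen after their values were seen, spread around these. Stk31 stood 0.40 and 0.34 higher, the synaptonemal complex gene Sycp1 0.72 and 0.31, and Dazl, an RNA-binding protein of germ cells, 0.24 and 0.26. The meiosis inducer Stra8 stood 0.44 higher in set 1 and 0.18 in set 2. Nanos2, which keeps male germ cells out of meiosis, went the other way, by -0.37 and -0.53 from a control mean near the bottom of the scale. The mean log2 level of the list was 6.38 and 6.34 in controls, 6.57 and 6.44 with NaBu, and 6.84 and 6.37 on the VPA arrays, which share those controls.

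Many promoters of germ cell genes are rich in CG dinucleotides, the sites of DNA methylation, and DNA methylation keeps a number of them silent outside the germ line. The 250 bases before the start of 2 germ cell genes that stood higher and of Gpr62 and Prp2, which stood lower, are shown as examples. Only the 2 higher genes are on the germ cell list, so the printed sequences do not compare higher with lower genes. The sequences are from RefSeq on GRCm38.p6, read 5′ to 3′ on the gene's strand, with each CG in capitals. They come from chr3:40708621-40708870 (plus strand, Slc25a31), chr15:88982744-88982993 (plus strand, Mov10l1), chr9:106465986-106466235 (minus strand, Gpr62) and chr6:132595661-132595910 (plus strand, Prp2).
Slc25a31: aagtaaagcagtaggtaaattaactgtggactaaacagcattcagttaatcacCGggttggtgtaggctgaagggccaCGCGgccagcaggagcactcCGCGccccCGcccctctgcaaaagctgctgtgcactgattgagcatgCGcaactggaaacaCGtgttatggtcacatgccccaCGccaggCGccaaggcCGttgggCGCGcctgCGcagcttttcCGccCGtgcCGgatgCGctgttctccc
Mov10l1: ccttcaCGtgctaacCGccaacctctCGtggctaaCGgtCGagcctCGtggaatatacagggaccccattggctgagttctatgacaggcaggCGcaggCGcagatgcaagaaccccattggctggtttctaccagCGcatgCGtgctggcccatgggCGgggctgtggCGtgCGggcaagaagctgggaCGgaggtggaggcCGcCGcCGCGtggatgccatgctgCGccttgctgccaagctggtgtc
Gpr62: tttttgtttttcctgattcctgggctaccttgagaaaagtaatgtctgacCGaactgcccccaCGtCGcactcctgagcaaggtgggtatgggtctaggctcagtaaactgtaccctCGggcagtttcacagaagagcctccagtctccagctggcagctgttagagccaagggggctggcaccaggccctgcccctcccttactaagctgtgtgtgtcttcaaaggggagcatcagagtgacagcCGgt
Prp2: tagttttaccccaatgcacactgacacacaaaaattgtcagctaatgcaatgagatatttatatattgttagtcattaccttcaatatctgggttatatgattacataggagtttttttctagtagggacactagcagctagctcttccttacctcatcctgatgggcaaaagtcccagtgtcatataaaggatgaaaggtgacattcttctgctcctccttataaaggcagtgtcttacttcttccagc

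The letters CG occur 18 times before Slc25a31, 19 times before Mov10l1, 5 times before Gpr62 and 0 times before Prp2, on either strand since CG reads the same on both. At least 10 CG were found in 37.8% of all 32851 promoter windows of that length in the table, and in 53.7% of the 19177 windows of measured genes. The germ cell list had 72.0% of its 50 windows at that number, with 43 genes matched. Of the 11 windows of the 10 matched genes that were 0.5 higher in both sets, 63.6% reached it. Of the 6 windows of the 5 matched lower genes (of 11), 0 did. The higher and lower sets were chosen by their differences, the windows are few, and no test compared the shares. These shares describe sequences and say nothing of methylation or factor binding, which the arrays did not measure.

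The 2-cell-like list holds genes of the totipotent-like state that a small fraction of embryonic stem cells enters at any time. Of 20 measured genes, 14 were higher and 6 lower, against 54.3% and 45.7% of all genes. The median of the list was 0.12 (0.20 in set 1 and 0.06 in set 2). Zfp352, a transcript of the early embryo, stood at 5.24 and 4.94 in controls and at 6.04 and 5.30 with NaBu, 0.79 and 0.36 higher. Usp17ld had the highest difference of any gene, 0.99, but it stood at 7.55 and 9.27 in controls and at 9.44 and 9.36 with NaBu, so the value rests on Control 1. Pramel6 was lower in both sets, by -0.27 and -0.32. Control arrays differed widely for these genes, and the list median ranged from -0.23 to 0.68 when 1 array was left out.

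Fibroblast genes stood higher mostly in set 2. Of 42 measured feeder markers, 33 were higher and 9 lower with NaBu, and 24 were higher in both sets. The shares over all genes were 54.3% higher and 29.1% higher in both sets. The median of the markers was 0.03 in set 1 and 0.21 in set 2. Col1a1 differed by 0.16 and 0.67, and Col1a2, the partner chain of type I collagen, by 0.29 and 0.46. Dcn, a matrix proteoglycan, stood at 7.73 and 9.81 in controls and at 8.003 and 10.10 with NaBu, so the 2 controls lay much farther apart than either did from its NaBu partner. Acta2, smooth muscle actin, stood 0.33 and 0.24 higher and Thy1 0.14 in both sets. The summed intensity of the 42 markers was 17638 and 23781 in controls and 17142 and 27103 with NaBu. Set 2 thus held more fibroblast signal than set 1 in both groups. Among the defining markers Lum stood between 3.03 and 3.49 and Postn between 4.45 and 4.88, below the median gene, while Col1a1, Col1a2, Col3a1, Thy1 and Dcn lay above it on all 4 arrays. The feeder list had a median of -0.21 without NaBu replicate 2 and -0.09 without Control replicate 1, and its part in other differences was not tested.

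**Figure D4:**
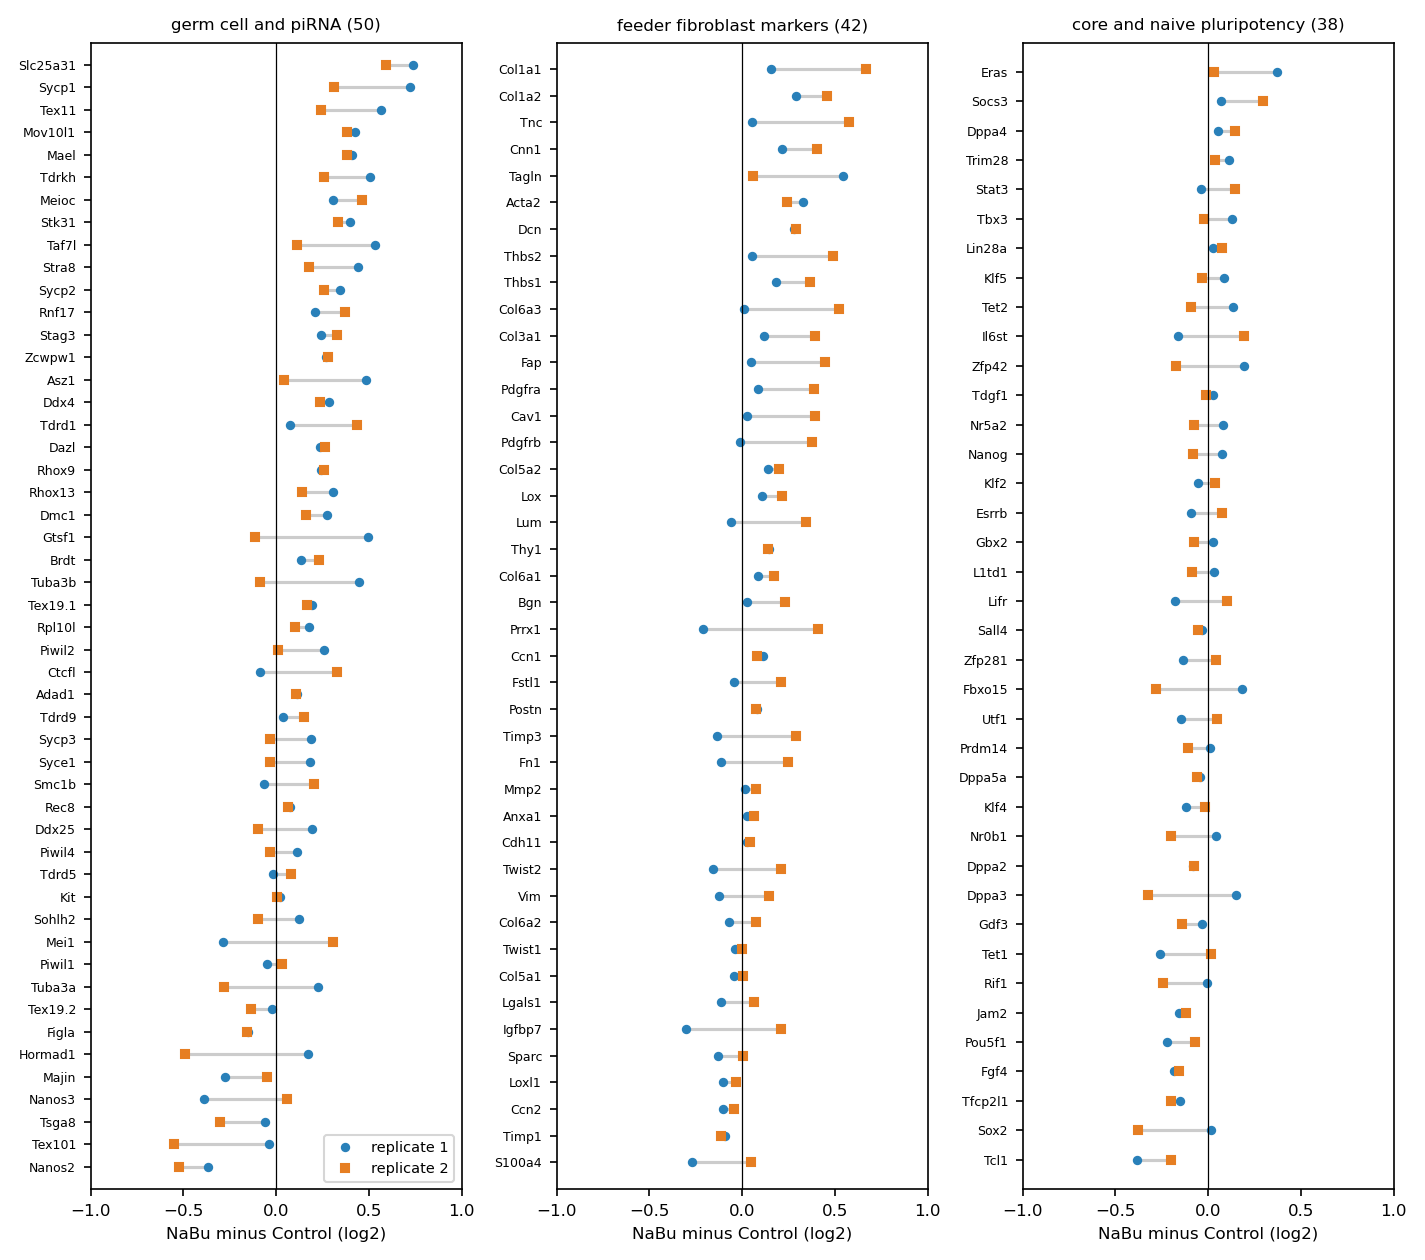
NaBu minus Control (horizontal axis, log2) for every measured gene of the germ cell and piRNA, feeder fibroblast and pluripotency lists, with circles for replicate set 1 and squares for set 2, ordered by the mean of both. Germ cell genes lie to the right in 40 of 50 rows, fibroblast genes lie farther right in set 2 (median 0.21) than in set 1 (0.03), and pluripotency genes lie close to zero on both sides.

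The deacetylases that butyrate binds were measured at nearly equal levels in both groups. Hdac1 stood at 11.49 and 11.25 in controls and at 11.62 and 11.22 with NaBu, a difference of 0.05 (95% interval -0.47 to 0.57). Hdac2 differed by 0.02 (-0.43 to 0.46) and Hdac3 by 0.09 (-0.30 to 0.48). These are the class I enzymes of the nuclear corepressor complexes, and Hdac8, the remaining member of that class, differed by -0.07 (-0.37 to 0.22). The groups overlapped for Hdac1, Hdac2, Hdac3 and Hdac8. For all 18 deacetylases and sirtuins the interval excluded a doubling and a halving, 12 were higher and 6 lower, and the median was 0.03. Sirt3, the mitochondrial deacylase, had the largest even difference, -0.13 and -0.25.

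The other enzymes and readers of acetylation lay in the same range. Of 18 acetyltransferases 10 were higher and 8 lower, with Kat2b, a coactivator acetyltransferase, lower by -0.28 and -0.35. The 37 subunits of deacetylase complexes had 19 higher and 18 lower and a median of 0.00, which turned to -0.01 with quantile normalization. Tbl1xr1, an NCoR subunit, stood 0.13 higher in both sets. Of 28 bromodomain proteins, which bind acetylated lysine, 19 were higher, with a median of -0.01 in set 1 and 0.13 in set 2. Pbrm1, a chromatin remodelling subunit, stood 0.17 and 0.30 higher. In the list for other acyl marks on lysine, Echdc1, an enzyme that clears ethylmalonyl-CoA, stood 0.45 and 0.30 higher.

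Carriers and receptors for butyrate had mostly low signals. Slc16a1, the monocarboxylate carrier MCT1, had a high one, at 10.13 and 10.12 in controls and 10.25 and 10.21 with NaBu, a difference of 0.11 (95% interval -0.16 to 0.37). Slc5a8, the sodium-coupled carrier, stood between 3.92 and 4.17 on the 4 arrays. The receptors Ffar2, Ffar3 and Hcar2 stood near the bottom of the scale, with control values between 3.35 and 3.76, and Ffar3 differed by -0.19 in set 1 and -0.18 in set 2. Of the 18 genes of this list 8 were higher and 10 lower, and all 18 intervals lay within a doubling and a halving.

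Genes that activate and oxidise butyrate showed no common direction. Of 32 measured genes, 18 were higher and 14 lower, with a median of 0.02, which was -0.00 with quantile normalization. Among the activating genes, Acsm1, Acsm2, Acsm3 and Acsm5 had control values between 3.16 and 3.80, near the bottom of the scale. A change in these genes may not show. Acss2, which makes acetyl-CoA from acetate, stood at 7.11 and 7.61 in controls and 7.37 and 7.94 with NaBu. Acat1, the thiolase that splits acetoacetyl-CoA, stood 0.20 and 0.33 higher. Acads, the short-chain acyl-CoA dehydrogenase that opens butyrate oxidation, differed by -0.35 and -0.19, from 8.61 and 8.43 to 8.27 and 8.24. The 95% intervals of all 3 genes crossed zero.

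Genes widely reported to respond to deacetylase inhibitors were divided. Of 43 that such drugs usually induce, 26 were higher and 17 lower, with a median of 0.00 in set 1 and 0.07 in set 2, and 2 of 43 differed by at least 0.25 one way in both sets, against 2.64% of all genes. The pooled median of 0.04 was -0.04 without Control replicate 1 and -0.10 without NaBu replicate 2. Krt8, an epithelial keratin, stood at 6.98 and 8.16 in controls and at 7.60 and 8.61 with NaBu, 0.62 and 0.44 higher. Clu, a secreted chaperone, stood 0.41 and 0.24 higher and Mt1, a metallothionein, 0.11 and 0.36. Stmn3, a microtubule regulator of neurons, went the other way, at 5.71 and 6.22 against 5.41 and 5.33. On the VPA arrays, against the same controls, the differences were 0.75 (Krt8), 0.97 (Clu) and -0.66 (Stmn3), and VPA was given at a higher dose. H1f0 and Cdkn1a, classic inhibitor-induced genes, are not analysed here, since their symbols stand on no probeset by themselves.

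Genes usually repressed by such drugs had a median near zero, and more genes of mitosis and DNA replication stood lower than higher. Of 21 repressed genes 9 were higher and 12 lower, with Ccnd1 at a difference of 0.01 and Myc at 0.03. Ccnd1 stood at -0.01 with quantile normalization. Birc5, a spindle and survival protein, stood at 7.91 and 7.80 in controls and at 7.67 and 7.47 with NaBu. Its difference was -0.29 (95% interval -0.63 to 0.05, and -0.53 to -0.04 with the block). Of 44 genes of mitosis 33 were lower, 18 of them in both sets against 1 higher in both, and the median was -0.05. Among all genes 45.7% were lower, 23.1% lower in both sets and 29.1% higher in both. Of 49 genes of DNA replication 32 were lower, with Tyms, the thymidylate synthase, differing by -0.20 and -0.30. The median of the replication list became 0.05 without Control replicate 1 and 0.06 without NaBu replicate 2. That of mitosis stayed between -0.10 and -0.04 without any single array.

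Histone genes were lower in 22 of 33 cases, 16 of them in both sets, against 45.7% and 23.1% of all genes. The median of the list was -0.09 (-0.02 in set 1 and -0.13 in set 2). It stayed between -0.14 and -0.05 without each array in turn. H4c8 stood at 5.20 and 5.32 in controls and at 4.99 and 4.73 with NaBu, a difference of -0.40 (95% interval -0.73 to -0.07). H3c7 stood at 3.29 and 3.28 against 3.51 and 3.91 near the bottom of the scale, and H2bc4 stood 0.29 and 0.40 higher. An earlier description of these data had shown histone genes on the lower side. Genes of a histone class are close copies, so a probeset may report several of them.

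Among D cyclins and their kinase inhibitors, 8 of 15 were higher, and the median of 0.01 was -0.01 with quantile normalization. Rb1, the retinoblastoma protein, stood 0.18 and 0.26 higher and Cdkn2b, an inhibitor of Cdk4, 0.15 and 0.32. Cdkn3 stood 0.18 and 0.16 higher. The 95% intervals of these 3 genes crossed zero and excluded a doubling.

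The pluripotency network showed differences under 0.3 for every member of the list. Of 38 genes 13 were higher and 25 lower, against 54.3% and 45.7% of all genes. The list had a median of -0.04 (0.00 in set 1 and -0.06 in set 2). For 36 of its genes the interval lay within a doubling and a halving. Sox2 stood at 11.61 and 11.49 in controls and at 11.63 and 11.11 with NaBu, so that its set differences were 0.01 and -0.38. Tcl1, an Akt cofactor of naive cells, stood at 9.30 and 8.67 against 8.92 and 8.47 and was lower in both sets, by -0.38 and -0.20. Tfcp2l1, a naive factor, differed by -0.15 and -0.20 and Fgf4 by -0.18 and -0.16. The sign of the list median turned without Control replicate 1 (0.07) or NaBu replicate 2 (0.13).

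Lineage genes gave few even differences, beside 54.3% of all genes higher and 45.7% lower. Sox1, an early neural factor, stood at 7.05 and 6.79 in controls and at 6.60 and 6.36 with NaBu, a difference of -0.44 (95% interval -0.80 to -0.08) with no overlap of the groups. The neural progenitor list had 14 of 21 genes lower and a median of -0.06, and its median stayed negative without each array. Of 26 mesoderm genes 19 were lower, with a median of -0.07, and Fgf8 differed by -0.12 and -0.38. Of 25 endoderm genes 13 were higher, with Foxa1 differing by -0.42 and -0.27 and the basement membrane chain Lama1 standing 0.17 and 0.46 higher. Of 26 trophectoderm genes 12 were higher, and Phlda2, a growth-restraining imprinted gene, differed by -0.29 and -0.26. Krt8, also on that list, stood 0.62 and 0.44 higher and Rhox9 0.24 and 0.26. Of 23 primed epiblast genes 12 were higher, and Foxd3 differed by -0.17 and -0.62 with an interval from -1.76 to 0.97.

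Of 50 neuronal genes, which the repressor REST and its deacetylase partners silence elsewhere, 24 were higher and 26 lower. The median was -0.02, and it was 0.04 when all probesets of a gene were averaged or when only genes with a mean of at least 5 were kept. It was 0.08 without Control replicate 2 and 0.14 without NaBu replicate 1. Mapk10, the neural JNK kinase, stood at 3.97 and 4.05 in controls and at 4.45 and 4.52 with NaBu, a difference of 0.47 (95% interval 0.07 to 0.88). Stmn3, also on this list, went the other way, by -0.30 in set 1 and -0.89 in set 2. Sncg, a synuclein, stood 0.31 and 0.25 higher and the synaptic vesicle sensor Syt1 0.42 and 0.30. The Mapk10 groups did not overlap. Without the block the intervals of Sncg and Syt1 crossed zero. With the block they ran from 0.02 to 0.54 (Sncg) and from -0.001 to 0.717 (Syt1).

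Butyrate is best known as an inducer of fetal globin in blood cells and of differentiation in gut cells, so both programs were listed. Globin and erythroid genes stood mostly below the median gene in these cells. Of 21 measured genes 6 were higher and 15 lower, with a median of -0.04, where 54.3% of all genes were higher and 45.7% lower. The embryonic globin Hbb-y stood between 2.80 and 3.14 on the 4 arrays. Alas2, the erythroid enzyme of haem synthesis, differed by -0.27 and -0.19. Of 39 intestinal genes 14 were higher and 25 lower. Car2, a carbonic anhydrase, stood at 9.22 and 8.22 in controls and at 8.61 and 7.81 with NaBu, with set differences of -0.61 and -0.42. Fabp2, a fatty acid binding protein of enterocytes, stood at 2.92 and 2.97 against 3.19 and 3.29, near the lowest values of the array. Alpi, the brush border phosphatase often used as a readout of butyrate, differed by -0.08 (95% interval -0.38 to 0.23).

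Stress and metabolic lists completed the survey, beside 54.3% of all genes higher and 29.1% higher in both sets. Of 23 p53 targets 18 were higher, 14 in both sets, with a median of 0.06 that was -0.01 without NaBu replicate 2, and Pmaip1 stood 0.13 and 0.31 higher while Bbc3, another BH3-only death gene, differed by -0.19 and -0.23. Of 29 glycolysis and hypoxia genes 22 were higher, with a median of 0.02 in set 1 and 0.15 in set 2 that turned negative without Control replicate 1 (-0.19) or NaBu replicate 2 (-0.24). Of 33 genes of endoplasmic reticulum and amino acid stress 24 were higher, among them Ddit3, by 0.26 and 0.31. Chac1 differed by -0.20 in both sets and Shmt2 by -0.18 and -0.19. The median of that stress list, 0.04, was -0.15 without Control replicate 1 and -0.10 without NaBu replicate 2. Immediate early genes were split 13 to 13, and Fosb stood at 7.11 and 8.85 in controls and at 7.60 and 9.32 with NaBu, 0.49 and 0.47 higher. Fosb had a 95% interval of -1.58 to 2.53 without the block and 0.24 to 0.72 with it. Of 26 genes of sterol and fatty acid synthesis 16 were higher, yet Fdps, which makes farnesyl pyrophosphate, differed by -0.37 and -0.15. Of 30 genes of metallothioneins and oxidative stress 17 were higher, and Mt2 stood 0.16 and 0.19 higher. Of 30 imprinted genes 21 were higher, with a median of -0.05 in set 1 and 0.14 in set 2. Actb, a common reference gene, differed by -0.01, or 0.05 with quantile normalization.

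**Figure D5:**
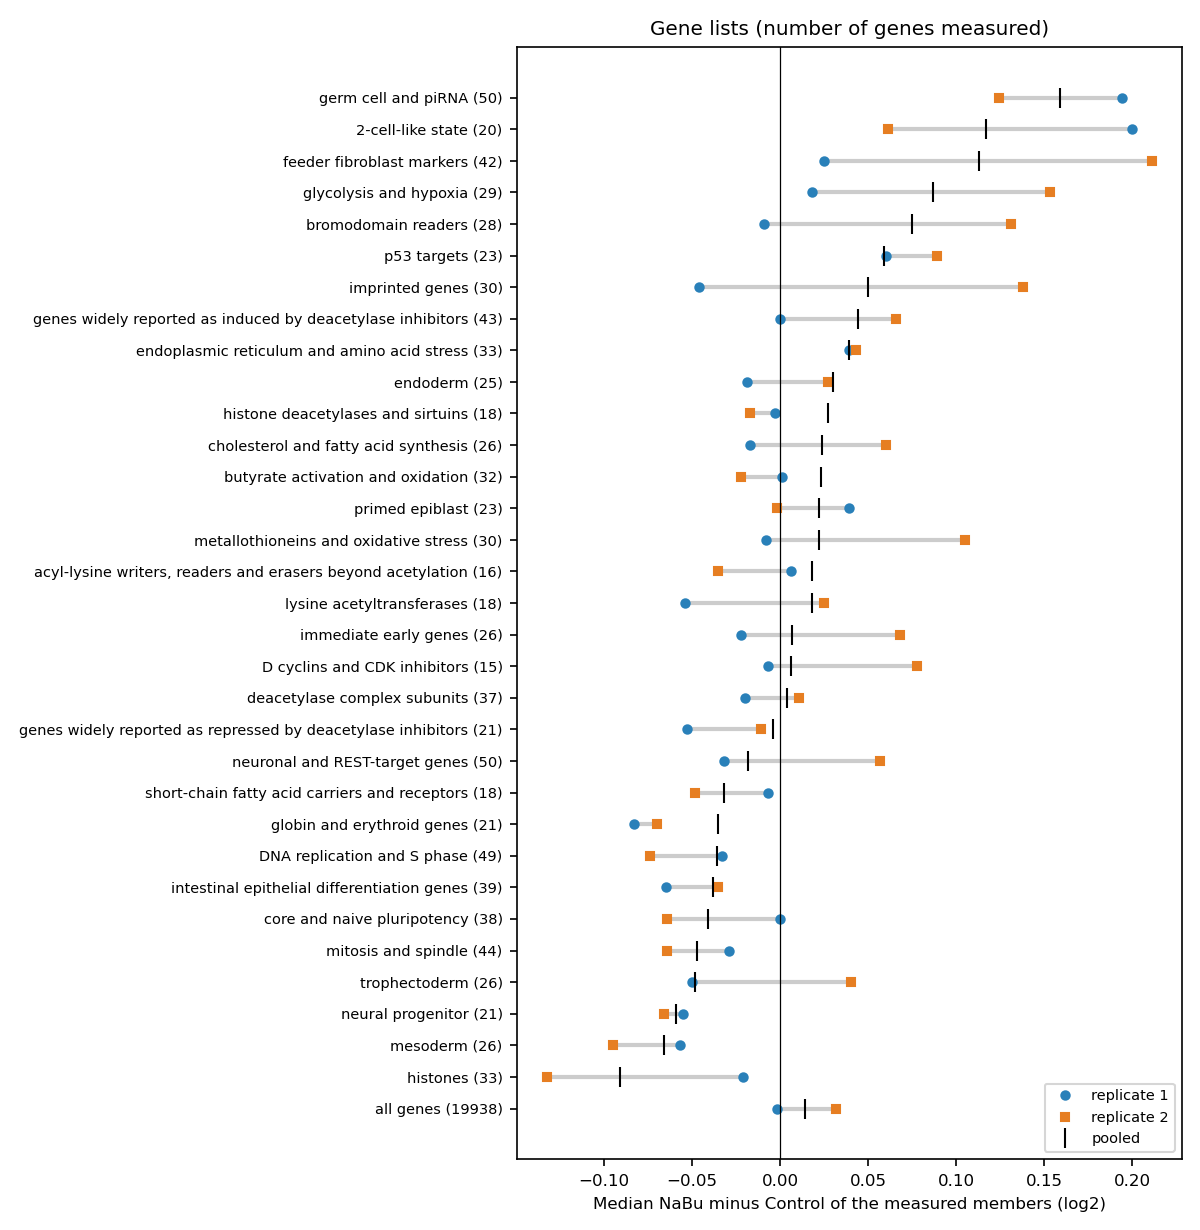
Median NaBu minus Control difference (horizontal axis, log2) of the measured genes of each of 32 lists and of all genes, pooled (bar) and within replicate sets 1 (circle) and 2 (square). The germ cell list lies highest at 0.16 and the histone list lowest at -0.09; 5 medians near zero change sign with quantile normalization, and 12, 12, 8 and 17 medians (all genes included) change sign without Control 1, Control 2, NaBu 1 and NaBu 2.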

How the data were processed

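The authors deposited log2 expression per probeset for 6 one-colour Affymetrix mouse arrays. Per the submitters' processing notes it was made with RMA in Affymetrix Expression Console 1.1. RMA settings, library files and genome build: not given in the sources used here. RMA compresses differences of dim genes. Array medians over 35556 probesets lay between 5.01 and 5.09, and the number of arrays limits the precision. Of 23410 annotated probesets 21789 carried 1 symbol (21698 matched a RefSeq gene), and the 1621 with several were not used. The probeset with the highest mean stood for each of 999 genes with more than 1, which left 19938 genes.

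The fit used limma 3.58.1 (R 4.3.3; lmFit, eBayes, no trend), 1 mean per group, 6 arrays, 3 residual degrees of freedom, and Benjamini-Hochberg adjustment over all genes at 0.05. It was tested on simulated data. For the fit without the block these had independent noise on each array, unlike the arrays here. That test does not show that its intervals hold for these data. Exact permutation of 2 arrays against 2 cannot give a two-sided p below 0.333 and was not used. Deviations of same-numbered arrays from their group means correlated with r = 0.693 (control and NaBu), 0.558 (control and VPA) and 0.567 (VPA and NaBu). The numbers were therefore treated as pairs in the set differences and the blocked fit, a reading from the data and not the labels. The fit without the block does not use these pairs. Detectable sizes follow from each gene's error and the noncentral t distribution.

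Members, 32 gene lists and rules were chosen with earlier results of these data known. Named genes are the 8 with the largest statistic per direction, the 8 per direction with one sign in both sets and the largest smaller difference (clone names, olfactory and vomeronasal receptors and microRNA, small nucleolar RNA and 5S RNA symbols left out of both), the 3 such members of each list, and a fixed list. Others, such as n-R5s136, Rpph1, Rmrp, Usp17ld, Gm7982, Slc41a2, Tktl1 and Npy1r, were named after their values were seen. Gapdh is not analysed here. Rules that rank by the smaller set difference favour genes with small blocked errors, so blocked intervals of genes named by them are a description. Alternatives covered the block, arrays fitted, scaling, filters on dim genes, the probeset rule and each array left out.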

Additional observations from a re-analysis of the deposited data

How the results depend on the processing

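No gene passed an adjusted p of 0.05 with limma in any alternative run (0 in each), against 311 at an unadjusted p under 0.05. That count was 916 with the replicate block, 1381 with the block on the 4 NaBu and Control arrays alone (smallest adjusted p 0.289), 67 of 11809 genes with a mean of at least 5, 42 of the 9969 genes of at least median level, and 184 to 757 when 1 array was left out (184 without Control replicate 1, 757 without NaBu replicate 1). The group left with 1 array was assumed to vary like the others. The count of genes at least 0.5 apart one way in both sets, 22, was 14 with a mean of at least 5 and 11 at or above the median level, where fewer genes are tested. It was 526 at a size of 0.25, 0 at a size of 1, and 20 to 22 under other scalings and probeset rules. The median half-width, 0.359, was 0.272 with the replicate block, 0.251 with the block on 4 arrays, and 0.44 to 0.476 when 1 array was left out. Of 131 named genes, 0 changed sign with the block, 2 with quantile normalization (Ccnd1 and Actb), and 26, 13, 10 and 27 without Control 1, Control 2, NaBu 1 and NaBu 2. Medians of lists (all genes included) changed sign 5 times with quantile normalization and 12, 12, 8 and 17 times without those arrays. Depth does not apply to arrays, and dim genes carried more of the 311 than bright ones: 57 of the 311 lay at or above the median level.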
